A study of Homo sapiens with 6 samples.

Results

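C4-2 cells depleted of DNA-PKcs by RNA interference were set against vehicle-treated controls, 2 arrays in each group. These 4 arrays were chosen by their labels from the 6 of the series, and the remaining 2, from cells given the kinase inhibitor NU7441 (1 µM, 24 h), entered only the alternative fit named below. C4-2 is an established line of human prostate carcinoma, a castration-resistant descendant of LNCaP, and all cultures were kept in medium that contains hormones. The knockdown group, called DNA-PKcs knockdown in the labels, received a pool of siRNAs against PRKDC for 96 h, so the depletion was transient and the cells are a mixed transfected population. The Control group is labelled as treated with DMSO. The labels do not say whether these control cultures also received the control siRNA pool that the protocol names, so depletion, transfection and time in culture cannot be told apart from the difference in vehicle. The 2 arrays of a group are called biological replicates, with no statement of separate cultures or days, so p-values measure the spread between these arrays, which may be technical. The comparison shows which transcripts differed between the 2 groups, not which of them depend on the DNA-PKcs protein itself.

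DNA-PKcs, the product of PRKDC, is the catalytic subunit of the DNA-dependent protein kinase and belongs to the PI3K-like kinases, with ATM, ATR and MTOR. The Ku heterodimer, made of XRCC6 (Ku70) and XRCC5 (Ku80), binds broken DNA ends and recruits it, and the assembled kinase holds the ends for ligation by non-homologous end joining. In prostate cancer the kinase is also known as a partner of the androgen receptor at target genes. PRKDC itself was not analysed here, so the labels alone define the depleted group.

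Each array gave 44629 probeset intensities on a linear scale, of which 15835 had 1 gene symbol and stood for 14812 genes. After quantile normalization of the 4 arrays, 5341 genes had a mean log2 intensity above 6 (an intensity of 64) and were tested, and all values below are normalized intensities or their log2 differences, knockdown minus control. Depth is not defined for arrays, and their number limits the precision. The median standard error of a log2 difference was 0.14. The median SD between the arrays of a group was 0.08 for control and 0.10 for knockdown on the log2 scale, and their Pearson correlation across tested genes was 0.986 and 0.973. Before scaling, the median probeset intensity was 31.5 and 31.6 on the control arrays and 28.4 and 27.6 on the knockdown arrays.

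**Figure D1:**
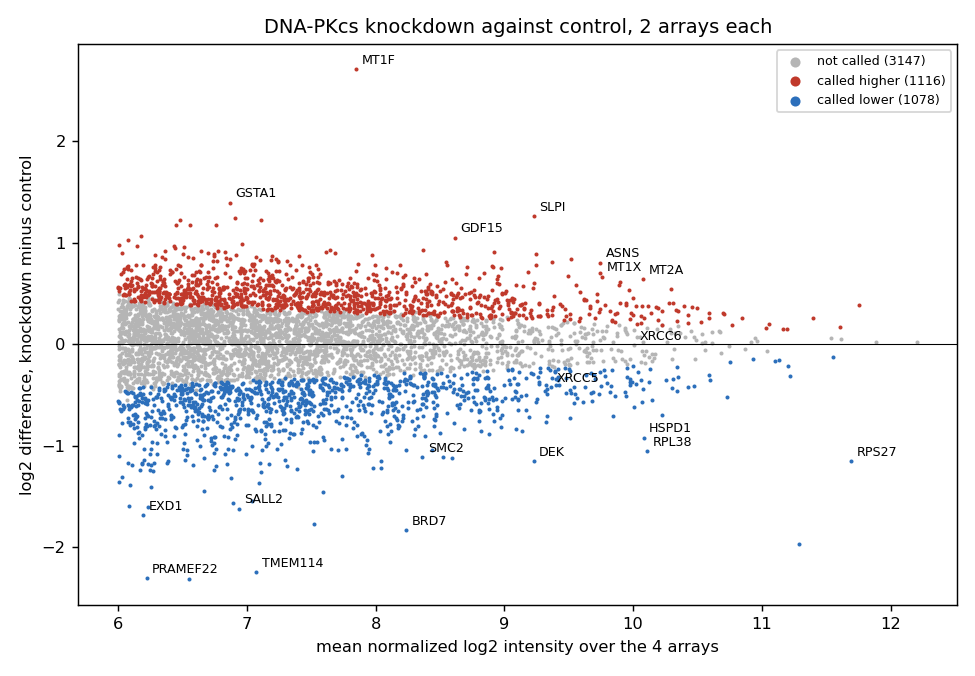
Log2 difference, knockdown minus control, against the mean normalized log2 intensity over the 4 arrays, with 1 point for each of 5341 tested genes, coloured by the limma call at an adjusted p under 0.05. The 1116 genes called higher and 1078 called lower lie on both sides of 0 at all intensities, with MT1F highest and PRAMEF22 lowest among the labelled genes.

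Many genes moved a little and few moved far. A gene is called here when limma's moderated test over the 4 arrays gave an adjusted p under 0.05 (Benjamini-Hochberg over all 5341 genes). That held for 2194 genes (41.1% of those tested), 1116 higher (20.9%) and 1078 lower (20.2%), and 2191 of them had both knockdown arrays on one side of both control arrays, as did 72.9% of all tested genes (40.4% higher, 32.4% lower). The median size of a called change was 1.41-fold. With quantile normalization, changes above 2-fold were mostly decreases, with 82 genes lower and 12 higher. Above 1.5-fold 458 genes were lower and 272 higher. Counts by size were not made under other scalings. The share called was larger among brighter genes, 34.6% at log2 intensities of 6 to 7 and 59.7% above 10, where the standard errors were smaller (median 0.07 against 0.16). Median centring in place of quantile normalization moved the median of all tested genes from 0.05 to 0.24 and gave 2800 calls, of which 78.6% were higher, against 50.9%. These counts rest on a spread estimated from 2 residual degrees of freedom a gene and shared across genes. With all 6 arrays in 1 model, and thus the NU7441 arrays in the estimate of the spread, 385 of 5204 genes (7.4%; 3.54% higher, 3.86% lower) were called, all of them among the 2194. Without control replicate 1 or 2 the count was 1276 or 1270, without knockdown replicate 1 or 2 it was 2569 or 2030, and 869 genes stayed called in each of these 4 fits. List counts below are to be read against the 20.9% and 20.2%, and those from the fit of 6 arrays against its 3.54% and 3.86%. Median-centred list counts are to be read against 2202 genes higher and 598 lower of 5330 tested. Those with 1 array left out are to be read against the total of the same fit. The genes named below as losing a call with 1 array left out are not all that did, as the list counts show. None of these shares is matched for brightness.

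The markers were those of a luminal prostate line on each of the 4 arrays. Of 7 luminal markers 5 were measured, and their summed intensity was 1866 to 1894 in controls and 1771 to 1821 after knockdown. KLK3, which encodes prostate-specific antigen, stood at 808 and 732 in the controls and 697 and 707 after knockdown, a difference of −0.13 ± 0.09 (95% interval −0.31 to 0.05). HOXB13, a homeobox factor of the prostate, fell (−0.57 ± 0.14) and KRT8, a luminal keratin, rose (0.61 ± 0.15). Most markers of other cell types were below the intensity filter. The summed intensity of 5 basal markers was 202 to 217 in controls and 162 to 169 after knockdown, that of 2 stromal markers 46.5 to 53.2 in controls and 49.9 to 54.5 after knockdown and that of 3 leukocyte markers 192 to 206 in controls and 183 to 205 after knockdown. The 8 neuroendocrine markers summed to 824 to 924 in controls and 618 to 703 after knockdown, most of it SOX2, a stem and neural transcription factor, which fell (−0.51 ± 0.10). The 6 endothelial markers summed to 259 to 266 in controls and 196 to 213 after knockdown, and ENG, a TGF-beta co-receptor, fell (−0.90 ± 0.16). DST, a cytoskeletal linker on the basal list, fell too (−0.84 ± 0.17). The part of these marker shifts in the results below was not tested. With 1 array left out, the call was lost for HOXB13 (adjusted p = 0.0551 without control replicate 2) and KRT8 (adjusted p = 0.0532 without control replicate 1).

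All 3 metallothioneins that could be tested rose, and MT1F had the largest increase of any gene called. These small cysteine-rich proteins bind zinc and copper, and their genes are switched on through metal response elements by the zinc-sensing factor MTF1. MT1F stood at 82.7 and 98.2 in the controls and 607 and 573 after knockdown, a 6.54-fold rise (2.71 ± 0.13, adjusted p = 1.79e-13, SE, n = 2 per group). MT1X stood at 633 and 745 in the controls and 1035 and 1145 after knockdown (0.66 ± 0.09, adjusted p = 8.40e-06), and MT2A at 857 and 875 in the controls and 1347 and 1360.1 after knockdown (0.64 ± 0.07, adjusted p = 1.12e-06). For all 3 genes the groups did not overlap, and each was also called with all 6 arrays and without each array in turn. The other 8 of the 11 metallothionein probesets measured were below the intensity filter, with group means of at most 48.7. Among these, MT1G read 22.2 and 21.2 against 44.5 and 35.6 and MT3 21.7 and 21.5 against 30.8 and 36.2, control against knockdown, whereas MT1M read 34.9 and 32.8 against 20.5 and 26. MTF1 itself was not called (0.14 ± 0.14, 95% interval −0.14 to 0.42), nor was the copper chaperone ATOX1 (0.21 ± 0.10), while CCS, which loads copper into superoxide dismutase, rose (0.51 ± 0.16); median centring called all 3 of these higher. Metallothionein copies are similar in sequence, so the probes of 1 gene may read another. The call did not hold with 1 array left out for CCS (adjusted p = 0.0845 without control replicate 1 and 0.0972 without control replicate 2).

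The promoters of the 2 bright metallothioneins held in the RefSeq table (GRCh38.p14) are printed because their genes rose together; of the other metallothionein promoters in the table, those of MT1B, MT1H and MT4, whose genes were below the intensity filter, hold 3, 8 and 3 matches. Shown are the 250 bases before each gene's start, 5′ to 3′ on the gene's strand, with matches to the core motif TGCACNC or TGCGCNC, on either strand, in capitals (MT1X, chr16:56682220-56682469, plus strand, 4 matches; MT2A, chr16:56608334-56608583, plus strand, 7 matches). At least 1 match is present in 24.8% of all 35116 promoters of that length in the table, and matches of the 2 strands may touch or overlap.
MT1X: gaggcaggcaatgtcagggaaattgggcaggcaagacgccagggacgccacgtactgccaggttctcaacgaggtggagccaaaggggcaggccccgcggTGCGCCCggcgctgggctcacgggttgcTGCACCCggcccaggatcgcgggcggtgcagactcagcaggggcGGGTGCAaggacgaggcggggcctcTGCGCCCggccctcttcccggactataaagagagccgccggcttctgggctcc
MT2A: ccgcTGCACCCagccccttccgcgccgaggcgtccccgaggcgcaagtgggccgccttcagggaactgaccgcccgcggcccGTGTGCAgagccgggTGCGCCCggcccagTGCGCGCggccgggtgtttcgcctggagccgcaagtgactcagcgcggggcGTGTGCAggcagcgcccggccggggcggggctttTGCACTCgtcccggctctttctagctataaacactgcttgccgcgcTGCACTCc

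**Figure D2:**
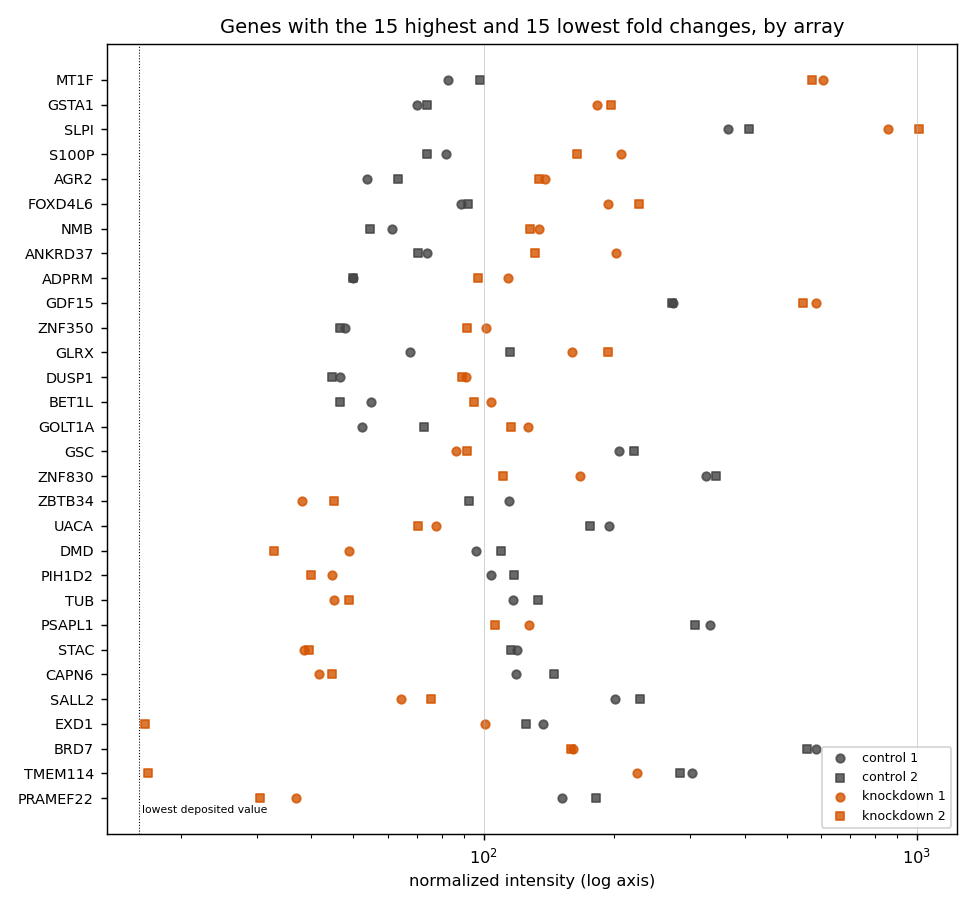
Normalized intensity on a log axis of the genes with the 15 highest and 15 lowest log2 differences among called protein-coding genes whose groups did not overlap, in order from highest to lowest, with controls in grey and knockdown in orange, 1 symbol per array. EXD1 and TMEM114 have 1 knockdown array near 16 and the other at 100.5 and 226.

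SLPI, GSTA1 and GDF15 were among the other genes with the highest increases. SLPI, a secreted protease inhibitor of mucosal epithelium, stood at 367 and 408 in the controls and 858 and 1009 after knockdown, 2.40-fold higher (1.26 ± 0.10, adjusted p = 4.15e-09). GSTA1, a glutathione transferase, stood at 70.3 and 73.9 in the controls and 183 and 197 after knockdown (1.40 ± 0.14, adjusted p = 2.80e-07). GDF15, a stress-induced cytokine of the TGF-beta family, stood at 273 and 272 in the controls and 583 and 545 after knockdown (1.05 ± 0.11, adjusted p = 2.61e-07). In each of these 3 genes both knockdown arrays exceeded both controls by more than the arrays of a group differed. S100P, a calcium-binding protein, rose 2.37-fold (1.24 ± 0.15), AGR2, a disulfide isomerase of secretory cells, 2.34-fold (1.22 ± 0.16), and NMB, the peptide neuromedin B, 2.26-fold (1.18 ± 0.16). GLRX, a glutaredoxin that reduces protein-glutathione bonds, stood at 67.8 and 115 in the controls and 159.5 and 194 after knockdown (0.99 ± 0.18), so its controls differed more from each other than those of the genes above. DUSP1, a phosphatase that switches off MAP kinases, read 46.7 and 44.6 against 91.2 and 89.2 (0.98 ± 0.17). The others of the highest 15 were FOXD4L6 (1.22 ± 0.14), ANKRD37 (1.18 ± 0.17), ADPRM (1.07 ± 0.17), the zinc finger gene ZNF350 (1.03 ± 0.17), and the Golgi traffic genes BET1L (0.97 ± 0.17) and GOLT1A (0.97 ± 0.17). A dimmer FOXD4L6 probeset differed by only 0.08, and FOXD4L6 and GSTA1 belong to families of similar copies. Below the intensity filter, and so not tested, were ADPRM and BET1L without knockdown replicate 1, and DUSP1 and ZNF350 without knockdown replicate 1 or knockdown replicate 2. Differences that moved by over 1.5 times were those of GLRX (0.61 without control replicate 1).

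BRD7, the bromodomain subunit of the PBAF form of the SWI/SNF chromatin remodeller, was among the genes with the largest decreases. It stood at 584 and 556 in the controls and 161 and 159 after knockdown, 3.57-fold lower (−1.84 ± 0.11, adjusted p = 5.86e-11). Of the 13 SWI/SNF subunits measured 6 were tested, and the other that fell was ACTL6A (−0.24 ± 0.09, a call lost under median centring). PBRM1, another PBAF subunit, was at −0.14 ± 0.12 (95% interval −0.39 to 0.11) and PHF10 at 0.23 ± 0.14 (95% interval −0.06 to 0.51), neither of them called. SALL2, a zinc finger transcription factor, stood at 201 and 229.7 in the controls and 64.4 and 75.4 after knockdown (−1.62 ± 0.15, adjusted p = 4.07e-08), with a dimmer probeset at −0.29. CAPN6, a calpain without protease activity that binds microtubules, stood at 119 and 145 in the controls and 41.7 and 44.6 after knockdown (−1.61 ± 0.17, adjusted p = 4.27e-07), and STAC, an adaptor of calcium channels, at 119.7 and 115 in the controls and 38.5 and 39.5 after knockdown (−1.59 ± 0.17, adjusted p = 5.41e-07). TUB (−1.41 ± 0.17), the dystrophin gene DMD (−1.36 ± 0.20), UACA, a regulator of apoptosome assembly (−1.32 ± 0.14), the homeobox gene GSC (−1.26 ± 0.14), PSAPL1 (−1.46 ± 0.13), PIH1D2 (−1.38 ± 0.17), and the zinc finger genes ZBTB34 (−1.31 ± 0.18) and ZNF830 (−1.30 ± 0.15) were the others with non-overlapping groups. PRAMEF22 stood at 152 and 181 in the controls and 36.8 and 30.5 after knockdown (−2.31 ± 0.17, adjusted p = 1.59e-09), in a family of near-identical copies that its probes may not separate. TMEM114 (303 and 284 in the controls and 226 and 16.8 after knockdown, −2.25 ± 0.57) and EXD1 (137 and 125 in the controls and 100.5 and 16.6 after knockdown, −1.68 ± 0.42) owe their place to 1 array. Of the 15 lowest genes 9, STAC, CAPN6 and PRAMEF22 among them, had a knockdown mean at or below 64, and of the 15 highest 7, DUSP1 among them, had such a control mean, so these passed the filter through 1 group only. The same held for 108 of all 1116 genes called higher and 130 of all 1078 called lower. Those named elsewhere include C9orf78, DGCR8, FOXO1, ULK1, ELOVL6, E2F3 and CDC25A, with such a knockdown mean, and SCARNA22, with such a control mean. With no filter and 14812 genes in the fit, the adjusted p was 0.000114 for STAC, 0.000127 for CAPN6 and 6.63e-06 for PRAMEF22, and TMEM114 alone of the 30 was not called (0.0543). Over the 15 highest and 15 lowest genes the adjusted p in limma's test ranged from 1.79e-13 to 0.00336, and 22 of the 30 were also called with all 6 arrays. The call did not hold with 1 array left out for ACTL6A (adjusted p = 0.167 without control replicate 1 and 0.117 without control replicate 2 and 0.287 without knockdown replicate 2). The filter removed CAPN6 and TUB without control replicate 2, and DMD, EXD1, PIH1D2, PRAMEF22, STAC and ZBTB34 without control replicate 2 or control replicate 1, and DUSP1 without knockdown replicate 1 or knockdown replicate 2. A shift of over 1.5 times was seen for ACTL6A (−0.14 without knockdown replicate 2), EXD1 (−2.97 without knockdown replicate 1), EXD1 (−0.38 without knockdown replicate 2), TMEM114 (−4.11 without knockdown replicate 1) and TMEM114 (−0.38 without knockdown replicate 2).

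Among DNA-PK's own partners, Ku80 fell and Ku70 was not called. XRCC5 stood at 754 and 772 in the controls and 623 and 520.4 after knockdown, 1.34-fold lower (−0.42 ± 0.10, adjusted p = 0.00153), but was not called with all 6 arrays (adjusted p = 0.0908). XRCC6 stood at 1042 and 1025 in the controls and 1052 and 1004 after knockdown (−0.01 ± 0.07, adjusted p = 0.933, 95% interval −0.16 to 0.15). Of 8 end-joining genes tested (10 measured) 3 were lower and 0 higher: besides XRCC5 these were PARP1, which senses strand breaks (552 and 509 against 347 and 368, −0.57 ± 0.10), and RIF1, which with TP53BP1 shields ends from resection (−0.50 ± 0.15). TP53BP1 was at −0.31 ± 0.13 (95% interval −0.58 to −0.04) and XRCC4, the partner of the end-joining ligase, at 0.03 ± 0.15 (95% interval −0.29 to 0.34). With all 6 arrays PARP1 alone was called, and likewise under median centring, where XRCC5 (adjusted p = 0.0552) and RIF1 (0.0894) were not and the list's median moved from −0.20 to −0.01. Of the 8 tested PI3K-like kinase and chaperone genes limma called 0, as it did with all 6 arrays, but without knockdown replicate 1 it called 3 higher and 1 lower, and under median centring 4 higher. In the 4-array fit ATR was at 0.04 ± 0.13 (95% interval −0.23 to 0.32), MTOR at 0.29 ± 0.13 (95% interval 0.03 to 0.55) and TRRAP at 0.20 ± 0.14 (95% interval −0.10 to 0.49). Calls lost with 1 array left out were those of RIF1 (adjusted p = 0.103 without control replicate 1 and 0.0819 without control replicate 2).

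The genes of homologous recombination were lower more often than the background. Of 13 tested (16 measured) 10 fell and 0 rose, with a median log2 difference of −0.43 against 0.05 over all tested genes. MRE11, the nuclease of the MRN complex, stood at 164 and 163 in the controls and 111 and 93 after knockdown (−0.69 ± 0.14). The helicase BRIP1 also fell (−0.54 ± 0.16), while NBN was at 0.09 ± 0.14 (95% interval −0.20 to 0.37). Elsewhere in this list EXO1, RAD54L, DNA2, PALB2, XRCC2 and RAD50 were lower (−0.31 to −0.47). The fit with all 6 arrays called 0 of the 10, without control replicate 1 or 2 the count was 5 or 3, and median centring left 2. Checkpoint genes moved the same way, with 8 lower and 1 higher of 15 tested (17 measured, median −0.32). CHEK1, the kinase that halts the cycle at stalled forks, stood at 361 and 339.8 in the controls and 193 and 222 after knockdown (−0.76 ± 0.12). CDC25A, the phosphatase that CHEK1 targets, fell too (−0.79 ± 0.17), as did WEE1, an inhibitory kinase of CDK1 (−0.58 ± 0.13), and the fork protein TIMELESS (−0.67 ± 0.19), whereas HUS1, of the checkpoint clamp, rose (191 and 189 against 273 and 269.6, 0.51 ± 0.12). Among its other members CDC25B, CHEK2, TIPIN and TOPBP1 were lower (−0.32 to −0.48). Without control replicate 1 or 2 the lower checkpoint count was 3 or 4, and with all 6 arrays it was 1. Under median centring 4 checkpoint genes were lower and 2 higher (median −0.12), and the recombination median was −0.24. Of 9 telomere genes tested (11 measured), GAR1 of the telomerase ribonucleoprotein fell (248 and 254 against 131 and 127, −0.96 ± 0.13), and STN1, of the CST complex (64.3 and 69 against 131 and 115, 0.89 ± 0.16), and the shelterin subunit TINF2 (0.50 ± 0.14) rose, and median centring gave 4 higher and 1 lower. Among the calls lost with 1 array left out were those of BRIP1 and TINF2 (without control replicate 2) and TIMELESS (without control replicate 1 or knockdown replicate 2). Other members, given above only as a range, were lost too, as the counts without a control replicate show. Not tested, as below the intensity filter, was CDC25A without control replicate 1 or control replicate 2. The log2 difference moved by over 1.5 times for TIMELESS (−1.02 without knockdown replicate 1) and TIMELESS (−0.31 without knockdown replicate 2).

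**Figure D3:**
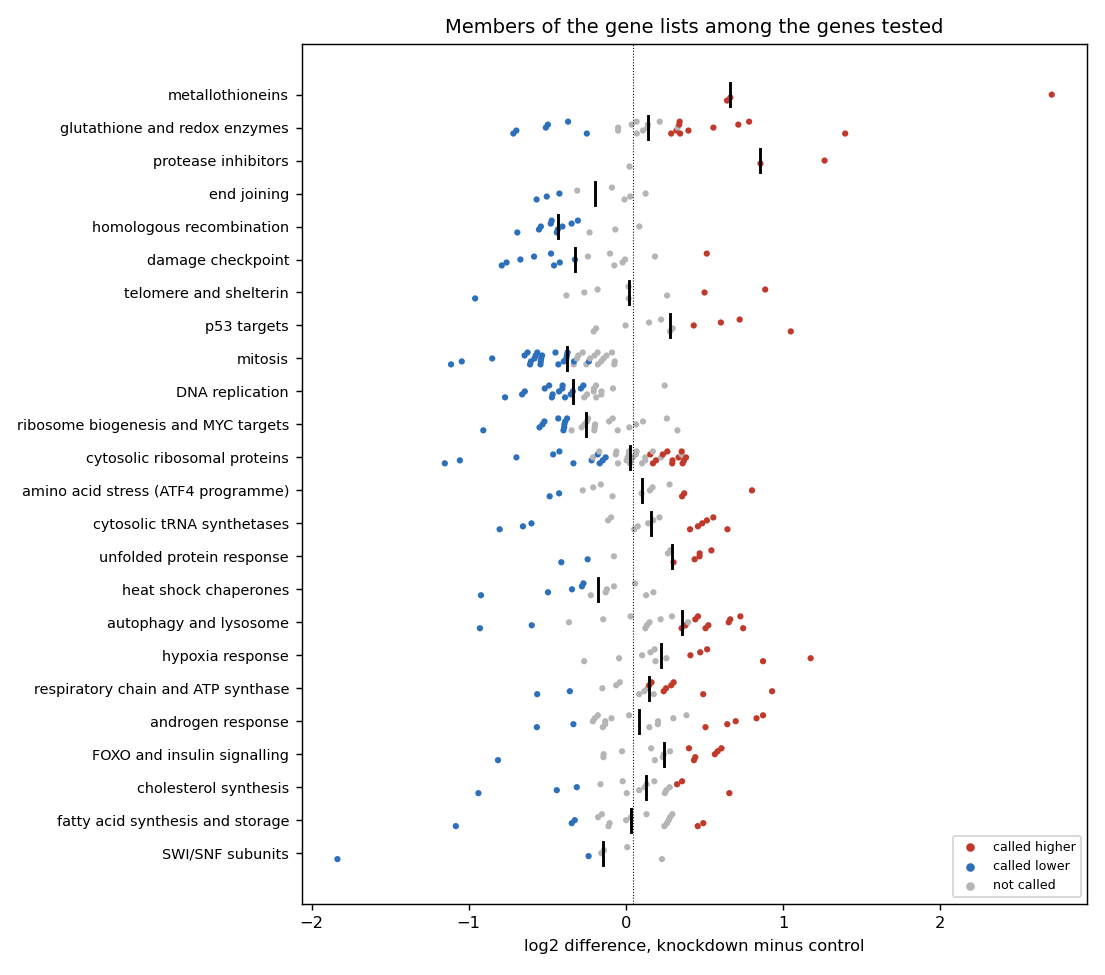
Log2 difference, knockdown minus control, of the tested members of 24 gene lists, 1 point per gene, red for called higher, blue for called lower and grey for not called, with the list median as a black bar and the median of all tested genes (0.05) as a dotted line. All 37 points of the mitosis list lie below 0, and the metallothionein points lie above it.

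Transcripts of dividing cells were lower more often than the background. Of 37 tested mitosis genes (39 measured) 22 were called lower and 0 higher, with a median of −0.38 against 0.05 over all tested genes, and 16 were called with a median of −0.19 under median centring. In these bulk samples, fewer dividing cells and less RNA per dividing cell cannot be told apart. SMC2, a condensin subunit, stood at 453 and 517 in the controls and 275 and 182 after knockdown, 2.16-fold lower (−1.11 ± 0.14, adjusted p = 5.90e-06). NUSAP1, a spindle-associated protein, stood at 512 and 483 in the controls and 264 and 220.0 after knockdown, 2.06-fold lower (−1.04 ± 0.12, adjusted p = 9.07e-07). The cytokinesis kinesin KIF20A read 171 and 192 against 129 and 77.7 (−0.85 ± 0.18) and the spindle checkpoint gene MAD2L1 341 and 341 against 241 and 198 (−0.64 ± 0.12), control against knockdown. The decrease was uneven, since CDC20 (−0.09 ± 0.10, 95% interval −0.30 to 0.12), KIF11 (−0.12 ± 0.11), PTTG1 (−0.07 ± 0.17) and CENPI (−0.07 ± 0.15) were not called. Of the remaining members TTK, AURKA, FOXM1, KIF20B, AURKB, CCNB2, TOP2A, KIF15, BUB3, BUB1B, KIF23, ECT2, NDC80, CENPK, MKI67, SMC4, CCNA2 and HMMR were lower (−0.24 to −0.63). Of 25 DNA replication genes tested (29 measured) 15 fell and 0 rose (median −0.34), and under median centring 6 fell and 1 rose (median −0.13). E2F3, a transcription factor of the G1/S transition, read 88.9 and 89.4 against 57.7 and 47.4 (−0.77 ± 0.18), MCM8 218 and 190.4 against 156 and 106 (−0.66 ± 0.16) and MCM3, of the replicative helicase, 406 and 406 against 258 and 262 (−0.64 ± 0.11). Decreases of −0.49 ± 0.09 for TYMS, thymidylate synthase, and −0.40 ± 0.09 for RRM1, a subunit of ribonucleotide reductase, were also called, and MCM5 (−0.08 ± 0.14), RRM2 (−0.16 ± 0.09) and DUT (0.25 ± 0.14) were not called. In the rest of the list E2F7, GINS1, FEN1, CCNE2, MCM6, E2F1, CDC7, CDC6, MCM7 and MCM4 were lower (−0.27 to −0.52). With all 6 arrays 4 mitosis and 3 replication genes were called lower. Leaving out 1 array gave 16 to 24 mitosis and 7 to 16 replication genes, fewest without control replicate 1. The filter removed E2F3 without control replicate 1 or control replicate 2. A shift of over 1.5 times was seen for KIF20A (−0.48 without knockdown replicate 2) and MCM8 (−0.38 without knockdown replicate 2).

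Some ribosome assembly factors fell, and the ribosomal proteins themselves split. Of 26 tested genes of ribosome biogenesis and MYC targets (29 measured) 10 were lower and 0 higher (median −0.26), 3 were lower with all 6 arrays, and under median centring 4 were lower and 3 higher (median −0.08). BOP1 was among the lower genes (−0.40), but a dim second BOP1 probeset was at 0.31. The nucleolar proteins NOP16 (465 and 451 in the controls and 292 and 205 after knockdown, −0.91 ± 0.13), FBL, the methyltransferase fibrillarin (1315 and 1437 in the controls and 946 and 932 after knockdown, −0.55 ± 0.07), and NCL, nucleolin (2092 and 1978 in the controls and 1451 and 1391 after knockdown, −0.52 ± 0.06), each had non-overlapping groups. Elsewhere in this list NOP14, NOLC1, LYAR, WDR12, WDR43 and NOP58 were lower (−0.37 to −0.53). MYC was at 0.11 ± 0.11 (95% interval −0.12 to 0.34). Of 43 tested cytosolic ribosomal protein genes (44 measured) 11 fell and 12 rose, around a median of 0.03, counts a little above the background. The share called was 53.5%, against 41.1% of all tested genes and 59.7% of those above a log2 intensity of 10. RPS27 stood at 4838 and 5035 in the controls and 2357 and 2092 after knockdown, 2.22-fold lower (−1.15 ± 0.05, adjusted p = 9.39e-14), RPL38 at 1626 and 1557 in the controls and 798 and 733 after knockdown, 2.08-fold lower (−1.06 ± 0.07, adjusted p = 6.33e-10), and RPL37A at 1552 and 1499 in the controls and 985 and 899 after knockdown, 1.62-fold lower (−0.70 ± 0.07, adjusted p = 3.77e-07). The increases were smaller, led by RPS28 (2984 and 3060.4 in the controls and 3899 and 3982 after knockdown, 0.38 ± 0.04), RPL30 (0.37 ± 0.08), RPL28 (0.36 ± 0.10) and RPS14 (0.36 ± 0.07). Among its other members RPL22, RPS21, RPL18, RPS29, FAU, RPL11, RPL19 and RPS6 were higher (0.16 to 0.34), and RPL24, RPS24, RPS7, RPL35, RPS18, RPL12, RPS16 and RPS15 were lower (−0.13 to −0.46). In the fit of all 6 arrays 6 were lower and 3 higher. The higher count was 7 without control replicate 1, and the lower count 6 without control replicate 1, 6 without control replicate 2 and 7 without knockdown replicate 2. Median centring gave 5 lower and 25 higher, with RPL12, RPS15, RPS16 and RPS18 turned to above 0. RPL19 had a second bright probeset at −1.41, and the mean of its probesets put RPL19 at −0.62. Many ribosomal protein genes have processed copies elsewhere in the genome that their probes may also read. Calls lost with 1 array left out were those of BOP1 (adjusted p = 0.0566 without control replicate 1 and 0.193 without control replicate 2), RPL12 (adjusted p = 0.0888 without control replicate 1 and 0.0793 without control replicate 2), RPL19 (adjusted p = 0.173 without control replicate 1), RPS15 (adjusted p = 0.122 without control replicate 1 and 0.198 without control replicate 2 and 0.164 without knockdown replicate 2), RPS16 (adjusted p = 0.0539 without control replicate 1 and 0.345 without control replicate 2 and 0.0766 without knockdown replicate 2), RPS18 (adjusted p = 0.0869 without control replicate 1 and 0.144 without control replicate 2 and 0.0827 without knockdown replicate 2) and RPL28 (adjusted p = 0.174 without knockdown replicate 2). By over 1.5 times the log2 difference moved for RPL19 (0.11 without control replicate 1), RPL28 (0.57 without knockdown replicate 1), RPL28 (0.17 without knockdown replicate 2) and RPS15 (−0.08 without knockdown replicate 2).

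**Figure D4:**
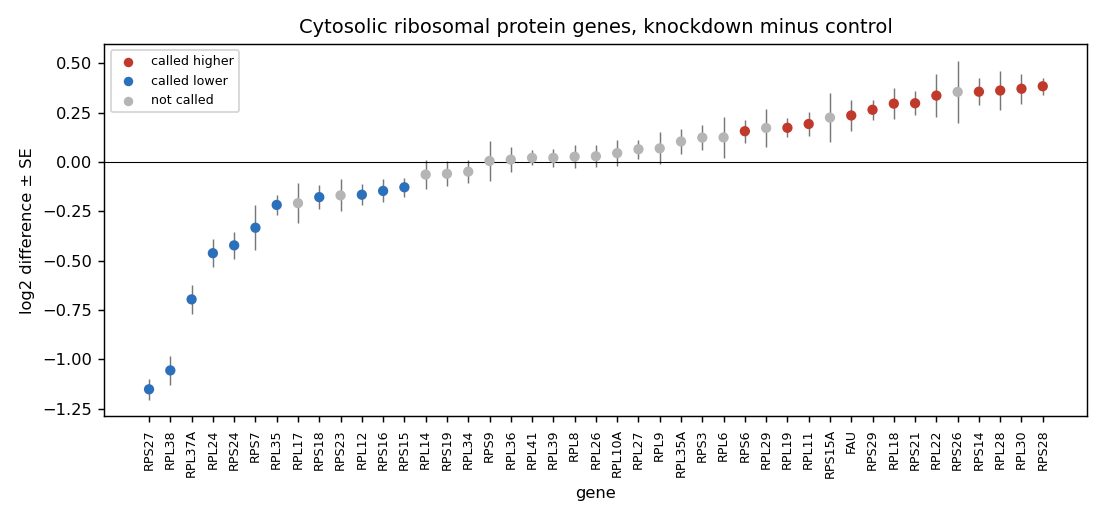
Log2 difference, knockdown minus control, with limma's standard error as bars, of the 43 tested cytosolic ribosomal protein genes in order of size, red for called higher, blue for called lower and grey for not called. RPS27, RPL38 and RPL37A lie at −1.15, −1.06 and −0.70, apart from the remaining genes, which run from RPL24 at −0.46 to RPS28 at 0.38.

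Protein stress pathways did not move as blocks. In the amino acid stress programme, which the factor ATF4 drives, 3 of 13 tested genes rose and 2 fell (18 measured, median 0.10). ASNS, the asparagine synthetase, stood at 711 and 595 in the controls and 1145 and 1123 after knockdown, 1.74-fold higher (0.80 ± 0.09, adjusted p = 7.46e-07), while ATF4 itself stood at 975 and 961 in the controls and 741 and 646 after knockdown (−0.48 ± 0.09, adjusted p = 0.000176). SHMT2 (0.37 ± 0.12) and EIF4EBP1 (0.36 ± 0.11) rose and the serine synthesis enzyme PSAT1 fell (−0.42 ± 0.12), with PHGDH at −0.21 ± 0.11 (95% interval −0.43 to 0.01). Median centring gave 7 higher and 1 lower. The ASNS promoter is printed for its match to the ATF4 composite element TGATGNAA, in capitals, in the 250 bases before the gene's start (chr7:97872409-97872658, minus strand, GRCh38.p14); 3.14% of all promoters in the RefSeq table hold a match on either strand, and the ATF4 and PSAT1 windows hold none. With 1 array left out, the call was lost for EIF4EBP1 (adjusted p = 0.0735 without control replicate 2), SHMT2 (adjusted p = 0.25 without control replicate 2) and PSAT1 (adjusted p = 0.125 without control replicate 1). Differences that moved by over 1.5 times were those of PSAT1 (−0.27 without knockdown replicate 2).
ASNS: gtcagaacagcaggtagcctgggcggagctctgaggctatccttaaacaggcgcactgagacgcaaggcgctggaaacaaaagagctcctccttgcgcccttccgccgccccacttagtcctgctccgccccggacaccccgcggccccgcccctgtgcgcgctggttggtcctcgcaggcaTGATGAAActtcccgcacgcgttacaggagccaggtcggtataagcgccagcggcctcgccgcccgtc

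Cytosolic tRNA synthetases, which charge tRNAs with amino acids, split, with 6 of 16 tested genes higher and 3 lower (17 measured). WARS1 (374 and 414 in the controls and 627 and 604 after knockdown, 0.65 ± 0.10) and QARS1 (239 and 244 in the controls and 339 and 374 after knockdown, 0.56 ± 0.12) were highest, and LARS1 (356 and 360.5 in the controls and 231 and 183 after knockdown, −0.80 ± 0.13) and YARS1 (−0.60 ± 0.12) among the lower. Of the remaining members CARS1, MARS1 and RARS1 were higher (0.41 to 0.49), and AARS1 was lower (−0.66). VARS1 was also called higher (0.52). A second VARS1 probeset was at −0.83, and the mean of its probesets turned VARS1 to −0.16. Fitted on all 6 arrays, 2 were higher and 2 lower. Of 10 unfolded protein response genes tested (12 measured) 5 rose and 2 fell, with the sensor ATF6 (0.54 ± 0.14) and the factor XBP1 (0.47 ± 0.11) on the higher side and the calcium-binding chaperone CALR on the lower (1642 and 1634 in the controls and 1213 and 1252 after knockdown, −0.41 ± 0.07). The higher count was 3 without control replicate 1 and 0 with all 6 arrays. In the rest of the list CRELD2, SDF2L1 and SEC61B were higher (0.30 to 0.47), and CANX was lower (−0.24). Heat shock chaperones were lower in 5 of 12 tested genes and higher in 0 (16 measured), with a median of −0.18 that turned to 0.03 with median centring. HSPD1, the mitochondrial chaperonin, stood at 1524 and 1464 in the controls and 840.2 and 739 after knockdown, 1.89-fold lower (−0.92 ± 0.08, adjusted p = 1.41e-08), and HSPH1 read 1451 and 1410.2 against 1139 and 1117 (−0.34 ± 0.07), while HSPA9 was at 0.06 ± 0.08 (95% interval −0.11 to 0.22). Elsewhere in this list HSPA4 and STIP1 were lower (−0.28 to −0.50). HSPA1B was also called lower (−0.27), and its other probesets were at −0.31 to 0.26. The lower count was 3 without control replicate 1 and 2 with all 6 arrays. Of 11 p53 target genes tested (20 measured) 4 rose and 0 fell (median 0.28): GDF15, CDIP1 (98.2 and 97.1 against 130.4 and 199.5, 0.72 ± 0.17), PLK2 (74 and 68.3 against 108 and 108, 0.60 ± 0.16) and NINJ1 (0.43 ± 0.14). Others of that list were at 0.30 ± 0.12 for TP53INP1 (95% interval 0.04 to 0.55), 0.28 ± 0.14 for SESN1 and −0.21 ± 0.17 for TIGAR, none of them called, and with all 6 arrays GDF15 alone was called. The p53 target count was 2 without control replicate 2. Under median centring the counts higher and lower were 10 and 3 for the tRNA synthetases, 8 and 1 for the unfolded protein response, 2 and 2 for the heat shock chaperones and 8 and 0 for the p53 targets. The call did not hold with 1 array left out for ATF6 (adjusted p = 0.0807 without control replicate 2), NINJ1 (adjusted p = 0.092 without control replicate 2 and 0.169 without control replicate 1), PLK2 (adjusted p = 0.064 without control replicate 2) and HSPA1B (adjusted p = 0.176 without control replicate 1). A shift of over 1.5 times was seen for CDIP1 (0.41 without knockdown replicate 2).

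Several lysosomal and redox enzymes rose. Of 21 autophagy and lysosome genes tested (29 measured) 10 were higher and 2 lower (median 0.35). The higher genes included the hydrolases HEXA (95.8 and 98 in the controls and 162 and 163 after knockdown, 0.75 ± 0.14), CTSA (105 and 97.8 in the controls and 169.8 and 165 after knockdown, 0.73 ± 0.14) and CTSD, cathepsin D (77.3 and 67.9 in the controls and 109 and 121 after knockdown, 0.66 ± 0.16), and MCOLN1, the lysosomal calcium channel (0.65 ± 0.16). ULK1, the kinase that starts autophagy, stood at 105 and 92.5 in the controls and 48.6 and 55.2 after knockdown (−0.93 ± 0.17), and the membrane protein LAMP1 also fell (−0.60 ± 0.13). Among its other members CTSB, GABARAPL2, ATG2B, ATG12, SQSTM1 and RB1CC1 were higher (0.35 to 0.53). TFEB, the main transcription factor of lysosomal genes, was at −0.36 ± 0.15 (95% interval −0.67 to −0.05). The higher count was 5 without control replicate 2, and with all 6 arrays 2 were higher and 1 lower. Among glutathione and redox enzymes 10 of 26 tested rose and 6 fell (31 measured). GPX1, a glutathione peroxidase, stood at 442 and 468 in the controls and 729 and 763 after knockdown (0.72 ± 0.09, adjusted p = 6.29e-06) and GSTA4, a transferase of lipid aldehydes, at 81.1 and 71.4 in the controls and 125 and 137 after knockdown (0.78 ± 0.15), whereas GSR, which regenerates glutathione, fell (780.3 and 717 in the controls and 436 and 476 after knockdown, −0.72 ± 0.10, adjusted p = 8.27e-06), as did MGST3 (−0.70 ± 0.13) and PRDX6 (−0.51 ± 0.11). Of the remaining members GSTA1, CAT, GPX4, PRDX4, GSTK1, GSTM3, GSS and MGST2 were higher (0.29 to 1.40), and MGST1, GSTO1 and PRDX1 were lower (−0.25 to −0.50). The higher count was 5 without control replicate 1, and with all 6 arrays 3 were higher and 2 lower. Of 3 protease inhibitors tested (11 measured) SLPI and CST3, cystatin C (91.2 and 109.8 against 167 and 196, 0.86 ± 0.15), rose, and CSTB was at 0.02 ± 0.08 (95% interval −0.14 to 0.19). With median centring the counts higher and lower were 15 and 2 for the autophagy and lysosome genes, 16 and 4 for the redox enzymes and 3 and 0 for the protease inhibitors. Too dim for the filter was ULK1 without control replicate 1.

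Hypoxia response and respiratory chain genes were higher more often than the background of all tested genes. Brighter genes were called more often, and the part of brightness in these counts was not tested. Of 12 hypoxia response genes tested (17 measured) 5 rose and 0 fell (median 0.22), and 2 rose with all 6 arrays, ANKRD37 and NDRG1. The count was 3 without control replicate 1. ANKRD37 stood at 73.8 and 70.6 in the controls and 202 and 132 after knockdown (1.18 ± 0.17, adjusted p = 2.04e-05), NDRG1, a stress and androgen-regulated gene, at 112 and 141 in the controls and 253 and 209 after knockdown (0.87 ± 0.14, adjusted p = 8.46e-05), and BNIP3, a mitophagy receptor, at 613 and 676 in the controls and 1086 and 780.3 after knockdown (0.52 ± 0.11). In the rest of the list KDM3A and ERO1A were higher (0.41 to 0.47). In ANKRD37, NDRG1 and BNIP3 the first knockdown array was the higher one. VEGFA was at 0.18 ± 0.17 (95% interval −0.17 to 0.54). Of 9 glycolysis genes PGK1 rose (0.57 ± 0.11) and PGAM1 (−0.41 ± 0.09) and LDHB (−0.40 ± 0.08) fell, with LDHA at −0.05 ± 0.11 (95% interval −0.28 to 0.17) and GAPDH at 0.16 ± 0.08 (95% interval 0.00 to 0.32); with all 6 arrays 0 were called. Respiratory chain and electron transfer genes were higher in 8 of 17 tested and lower in 2, with 17 of the 81 listed genes measured. ETFRF1, a regulator of the electron transfer flavoprotein, stood at 136 and 154 in the controls and 264 and 289 after knockdown (0.93 ± 0.13, adjusted p = 1.34e-05), COX5B at 267 and 299 in the controls and 407 and 389 after knockdown (0.49 ± 0.11) and COX5A, of the same cytochrome oxidase, at 1712 and 1793 in the controls and 1434 and 1306 after knockdown (−0.36 ± 0.07). Elsewhere in this list COX7C, COX6C, COX8A, COX7A2 and COX4I1 were higher (0.16 to 0.30), and ETFDH was lower (−0.56). COX6A1 was also called higher (0.15). A dim second COX6A1 probeset was at −0.65, and the mean of its probesets turned COX6A1 to −0.25. The respiratory count was 3 without control replicate 1 and 3 with all 6 arrays. When arrays were median centred the counts higher and lower were 8 and 0 for the hypoxia response, 3 and 2 for the glycolysis genes and 11 and 1 for the respiratory chain. Leaving out control replicate 1 or control replicate 2 ended the call for COX6A1. Other respiratory and hypoxia members were also lost without control replicate 1, as the counts above show. The log2 difference moved by over 1.5 times for BNIP3 (0.28 without knockdown replicate 1).

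The androgen response and lipid synthesis lists had members on both sides. Of 20 androgen response genes tested (25 measured) 5 rose and 2 fell (median 0.09), counts near the background. EAF2, an elongation factor partner (89.3 and 119 in the controls and 169.6 and 198 after knockdown, 0.83 ± 0.15), C1orf116 (211 and 239.7 in the controls and 315 and 423 after knockdown, 0.70 ± 0.13), HERC3 (0.65 ± 0.13) and NDRG1 rose, and FKBP5, a chaperone of steroid receptors (491 and 487 in the controls and 360.4 and 418 after knockdown, −0.33 ± 0.11), and HOXB13 fell. Among its other members LIFR was higher (0.51). KLK2 was at −0.09 ± 0.12 (95% interval −0.33 to 0.15) and FOXA1, a pioneer factor of the androgen receptor, at −0.21 ± 0.10 (95% interval −0.42 to 0.00). Over all 6 arrays 2 androgen response genes were higher and 0 lower. Cholesterol synthesis genes were higher in 3 and lower in 3 of 16 tested (19 measured). LBR, a sterol reductase of the nuclear envelope, was the lowest (302 and 288 in the controls and 174 and 136 after knockdown, −0.94 ± 0.13, adjusted p = 1.84e-05) and TM7SF2, which catalyses the same sterol step, the highest (101 and 103 in the controls and 133 and 195 after knockdown, 0.66 ± 0.16, adjusted p = 0.00256). Of the remaining members SCAP and MSMO1 were higher (0.33 to 0.36), and EBP and ACAT2 were lower (−0.31 to −0.44). The higher count was 1 without control replicate 1 or 2 and 0 with all 6 arrays. Of 17 fatty acid genes tested (22 measured) 2 rose and 3 fell: the elongase ELOVL6 fell (105 and 117 in the controls and 69.5 and 39.2 after knockdown, −1.08 ± 0.20), the elongase ELOVL5 rose (880.0 and 869 in the controls and 1163 and 1239.8 after knockdown, 0.46 ± 0.08, adjusted p = 8.28e-05), and FASN was at −0.18 ± 0.12 (95% interval −0.43 to 0.08). In the rest of the list CPT2 was higher (0.49), and SCD and FADS2 were lower (−0.33 to −0.34). Of 15 genes of FOXO and insulin signalling (21 measured) 6 rose, among them TSC2 (0.61 ± 0.14) and PDPK1 (0.58 ± 0.14), which act on either side of AKT, and FOXO1 fell (99.2 and 96.6 in the controls and 59.7 and 51.9 after knockdown, −0.81 ± 0.17). Elsewhere in this list IGF1R, GRB10 and TXNIP were higher (0.40 to 0.57). AKT1 was also called higher (0.43). A second AKT1 probeset, nearly as bright, was at −0.02, and a dimmer PDPK1 probeset at 0.20. Without control replicate 1 or 2 only 3 of these rose, and with all 6 arrays 0 were called. By median centring the counts higher and lower were 11 and 1 for the androgen response, 8 and 2 for the cholesterol list, 7 and 1 for the fatty acid list and 10 and 1 for the FOXO and insulin list. With 1 array left out, the call was lost for AKT1 (adjusted p = 0.221 without control replicate 1 and 0.0732 without control replicate 2 and 0.37 without knockdown replicate 2), FKBP5 (adjusted p = 0.0826 without control replicate 1 and 0.0765 without control replicate 2 and 0.0929 without knockdown replicate 1) and HOXB13 (adjusted p = 0.0551 without control replicate 2). Differences that moved by over 1.5 times were those of AKT1 (0.68 without knockdown replicate 1), AKT1 (0.19 without knockdown replicate 2), ELOVL6 (−0.65 without knockdown replicate 2) and TM7SF2 (0.38 without knockdown replicate 2).

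Epithelial adhesion genes were higher in 4 and lower in 4 of 14 tested (20 measured): EPCAM (563 and 583 in the controls and 376 and 393 after knockdown, −0.58 ± 0.10), the tight junction scaffold TJP1 (−0.53 ± 0.10) and the desmosomal cadherin DSG2 (−0.46 ± 0.11) fell, and the polarity protein CRB3 (112 and 106 in the controls and 172 and 166 after knockdown, 0.64 ± 0.14) and CLDN7 (0.44 ± 0.12) rose. Among its other members EHF and GRHL2 were higher (0.32 to 0.35), and DSC2 was lower (−0.46). Of the adhesion genes 2 were lower without control replicate 1. Of 5 interferon and RNA sensing genes tested (28 measured, 23 below the filter) EIF2AK2, the kinase activated by double-stranded RNA, fell (143 and 129.6 in the controls and 69.4 and 71.7 after knockdown, −0.95 ± 0.15, adjusted p = 5.62e-05), IRF3 fell (−0.50 ± 0.16), and IFITM2 (0.66 ± 0.14) and ISG15 (0.44 ± 0.11) rose. In the RNA interference machinery DGCR8, which binds primary microRNAs for DROSHA, stood at 130.2 and 129 in the controls and 67.5 and 59.3 after knockdown (−1.03 ± 0.16, adjusted p = 2.90e-05), XPO5, the exporter of microRNA precursors, rose (0.28 ± 0.11), and the 4 others tested were not called. Centred on the array median, the counts higher and lower were 6 and 3 for the adhesion genes, 2 and 1 for the interferon genes and 2 and 1 for the RNA interference genes. The call did not hold with 1 array left out for DSG2 (adjusted p = 0.0813 without control replicate 1), ISG15 (adjusted p = 0.0722 without control replicate 1), XPO5 (adjusted p = 0.126 without control replicate 1 and 0.223 without control replicate 2 and 0.106 without knockdown replicate 2) and IRF3 (adjusted p = 0.309 without control replicate 2). A shift of over 1.5 times was seen for IRF3 (−0.33 without control replicate 2).

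In further lists few members were tested, so the counts called were small. Immediate early factors were higher in 3 of 9 tested (26 measured), namely DUSP1, JUNB (0.52 ± 0.15) and JUND (0.28 ± 0.07), and lower in 1, IER5 (−0.49 ± 0.17). Of 8 BCL2 family and death effector genes (18 measured) BAD (0.61 ± 0.16) and BCL2L1, which encodes BCL-XL (149 and 147 against 215 and 219, 0.55 ± 0.13), rose. Of 8 steroid and glucuronide enzymes (11 measured) HSD17B8 (0.53 ± 0.13) and HSD17B10 (0.44 ± 0.09) rose and HSD17B4 (405 and 428 against 304 and 241, −0.62 ± 0.12) and HSD17B12 (−0.42 ± 0.15) fell. Bromodomain proteins outside SWI/SNF were lower in 4 of 12 tested (14 measured), with BRD8 (−0.72 ± 0.15) and BRD2 (−0.59 ± 0.12) lowest, and higher in 0, with a median of −0.03 that turned to 0.18 with median centring. Of the remaining members KAT2A and BRWD1 were lower (−0.45 to −0.58). In the fit of all 6 arrays 0 were called. Of 5 NF-kB genes tested (14 measured) NFKB2 fell (−0.59 ± 0.17), and of 8 S100 and annexin genes (24 measured) S100P and ANXA6 (0.45 ± 0.15) rose and ANXA7 fell (−0.34 ± 0.11). CAPN6 was the 1 called of 3 calpain genes tested (10 measured), FN1 (0.41 ± 0.09), fibronectin, the 1 tested of 10 mesenchymal genes measured, and PRAMEF22 the 1 called of 2 PRAME genes tested (15 measured), PRAME being at 0.20 ± 0.15 (95% interval −0.11 to 0.51). Median centring changed the counts higher and lower for the steroid enzymes (to 3 and 1), BCL2 family (3 and 0) and S100 and annexin genes (4 and 0), and ended the call of IER5. Calls lost with 1 array left out were those of ANXA6 (adjusted p = 0.33 without control replicate 2), ANXA7 (adjusted p = 0.105 without control replicate 2 and 0.0924 without control replicate 1), HSD17B12 (adjusted p = 0.143 without control replicate 2 and 0.171 without control replicate 1 and 0.124 without knockdown replicate 1), JUNB (adjusted p = 0.0768 without control replicate 2 and 0.051 without control replicate 1), NFKB2 (adjusted p = 0.127 without control replicate 2), BAD (adjusted p = 0.0771 without control replicate 1), HSD17B8 (adjusted p = 0.0869 without control replicate 1) and IER5 (adjusted p = 0.39 without control replicate 1 and 0.0898 without knockdown replicate 2). Too dim for the filter were CAPN6 without control replicate 2, and PRAMEF22 without control replicate 2 or control replicate 1, and DUSP1 without knockdown replicate 1 or knockdown replicate 2. By over 1.5 times the log2 difference moved for ANXA6 (0.29 without control replicate 2), HSD17B12 (−0.27 without knockdown replicate 1) and IER5 (−0.29 without control replicate 1).

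**Figure D5:**
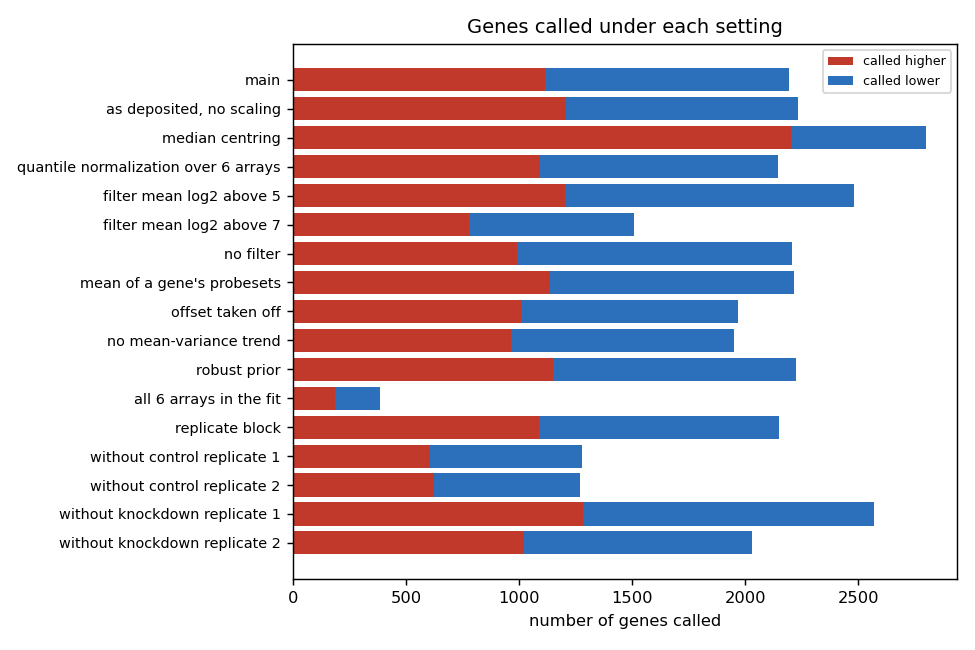
Number of genes called at an adjusted p under 0.05 in limma's test under each processing setting, red for higher and blue for lower. The bar for all 6 arrays (385 genes) is the shortest and that for median centring (2800 genes, 78.6% of them higher) the longest, against 2194 genes in the setting used throughout.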

How the data were processed

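Total RNA from C4-2 cells was amplified to cDNA, biotin-labelled and read on Human Gene 2.0 ST arrays (Affymetrix), per the labels' protocols. The deposited table holds the authors' intensity on a linear scale for 44629 probesets per array, none below 16; how they were summarised and scaled is not stated here. The log2 intensities of the 4 arrays were quantile normalized, and probesets were named from the platform table (28794 had no symbol here and were left out). The brightest probeset stood for a gene, and 5341 genes with a mean log2 above 6 were fitted in limma 3.58.1 (R 4.3.3; lmFit, eBayes with an intensity trend, Benjamini-Hochberg). The fitting script was tested on simulated data. Intervals are 95%, and errors are limma's standard errors. Genes were named as DNA-PK subunits, as the 15 highest and 15 lowest called protein-coding genes with non-overlapping groups, or as called or extreme members of gene lists; which of the latter got full values, and other uncalled members, were chosen after their values were seen. Members and lists were chosen with earlier results of these data known. A few items are not reported here. Promoter motifs were exact matches in the 250 bases before RefSeq gene starts. The alternatives were other scalings, filters, probeset rules, an offset, priors, all 6 arrays, a replicate block and leaving out each array.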

Additional observations from a re-analysis of the deposited data

How the results depend on the processing

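The count of 2194 called genes, 1116 higher and 1078 lower, was 385, 184 and 201 with all 6 arrays in the fit. Median centring gave 2202 higher and 598 lower. Leaving out 1 array in turn gave 1270 to 2569 genes in all, 606 to 1284 higher and 649 to 1285 lower, lowest without a control replicate. The other settings, values as deposited, quantile normalization over 6 arrays, filters at 5, 7 or none, the mean of a gene's probesets, the offset taken off, no mean-variance trend and a robust prior, gave between 1510 and 2481. Of the called genes named in the text that could be tested, the call was lost with all 6 arrays for 183 of 273, and median centring turned the direction of RPL12 (0.023), RPS15 (0.032), RPS16 (0.023) and RPS18 (0.0037), while the mean of a gene's probesets turned COX6A1 (−0.25), RPL19 (−0.62) and VARS1 (−0.16). Median centring ended the call, with the direction kept, for 55 of 274 of these (limma adjusted p from 0.055 to 0.728). All 55 were lower in the report's setting, XRCC5 among them. The 4 genes that it turned were not called either (limma adjusted p from 0.631 to 0.968). A robust prior ended it for EXD1 and TMEM114, among others (adjusted p = 0.403 and 0.433). With no filter it was lost for 50 of 276, without the mean-variance trend for 53 of 276. The causes were not tested.

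The replicate numbers are shared between the groups, but the deviations of same-numbered arrays correlated at −0.05 across tested genes over 2 pairs, so the numbers were not taken to pair the arrays. With the number as a replicate block 2151 genes were called, and among named genes the call was lost for GSS, HMMR, MGST2 and XPO5. An exact permutation test of 2 arrays against 2 cannot give a p below 0.333, so single genes rest on the spread shared across genes. If the lowest deposited value of 16 is an added offset, differences of dim genes are compressed.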

Other observations

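Splicing factors were counted over a list of spliceosome proteins and splicing regulators that was written after the data were seen. Of its 123 measured genes, 7 of them below the filter, 49 were lower and 7 higher, with a median log2 difference of −0.16 against 0.05 over all tested genes, but under median centring 25 were lower and 26 higher and the median turned to 0.04. C9orf78, a spliceosome-associated protein, stood at 169 and 167 in the controls and 67.8 and 55.4 after knockdown (−1.45 ± 0.15, adjusted p = 4.27e-07), PQBP1 at 390.0 and 411 in the controls and 167 and 178 after knockdown (−1.22 ± 0.12, adjusted p = 1.44e-07), U2SURP, which associates with the U2 particle, at 389.8 and 394 in the controls and 178 and 175 after knockdown (−1.15 ± 0.12, adjusted p = 2.82e-07), and HNRNPK, a nuclear RNA-binding protein, at 966 and 913 in the controls and 592 and 544 after knockdown (−0.73 ± 0.09, adjusted p = 2.40e-06). Fitted on all 6 arrays, 13 were lower and 0 higher. Without control replicate 1 or 2 the lower count was 36 or 28. Of 26 nucleoporin genes 9 fell and 0 rose, led by NUP88 (339 and 434 in the controls and 164 and 167 after knockdown, −1.22 ± 0.13, adjusted p = 5.02e-07), with 3 lower with all 6 arrays and 6 lower and 4 higher under median centring. Mitochondrial ribosomal protein genes were higher in 17 and lower in 16 of 74 tested, median centring gave 25 higher and 10 lower and turned the median from −0.05 to 0.15, and the higher count was 3 without control replicate 1 and 10 without control replicate 2. The counts of 17 and 16 mitochondrial ribosomal protein genes were near the background. DEK, a chromatin protein, stood at 908 and 878 in the controls and 458 and 353 after knockdown (−1.15 ± 0.11, adjusted p = 6.13e-08), and TOP1, topoisomerase I, at 569.7 and 569.7 in the controls and 273 and 250.4 after knockdown (−1.12 ± 0.11, adjusted p = 9.46e-08). In antigen presentation B2M, the light chain of class I molecules, stood at 479 and 445 in the controls and 790.0 and 802 after knockdown (0.78 ± 0.09, adjusted p = 1.83e-06) and a second B2M probeset rose by 0.86, while MICB, a stress ligand of natural killer cells, stood at 167 and 160.1 in the controls and 69.7 and 73 after knockdown (−1.20 ± 0.14, adjusted p = 2.40e-06). MICB has 7 probesets, of which 5 differed in the same direction and 2 dim ones in the other (0.55 and 0.16).

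Several short noncoding RNAs other than microRNAs were higher, an observation also made after the data were seen. The 1 telomerase RNA tested was not called, and of 5 genes typed only as noncoding RNA 4 were higher and 1 lower. All 6 called snaR genes of 7 tested were higher, with SNAR-G1 at 106 and 164 in the controls and 204 and 251 after knockdown (0.78 ± 0.16) and SNAR-H at 213 and 261 in the controls and 359.6 and 386 after knockdown (0.66 ± 0.12); these are primate-specific RNA polymerase III transcripts whose near-identical copies the probes may not separate, so they are not 6 separate observations. The Cajal body RNA SCARNA22 stood at 66.7 and 58.5 in the controls and 131 and 152 after knockdown (1.18 ± 0.16, adjusted p = 7.85e-06), and RMRP and RPPH1, the RNAs of RNase MRP and RNase P, rose by 0.31 ± 0.11 and 0.30 ± 0.09. Of 32 microRNA loci tested 11 were lower and 3 higher, and these probesets read precursor or host transcripts in amplified cDNA, not mature microRNAs. The transcribed pseudogene HNRNPA1P10 stood at 5035 and 4838 in the controls and 1315 and 1211 after knockdown (−1.97 ± 0.05, adjusted p = 2.88e-18), with a second bright probeset at −0.36, and HNRNPA1P33 at 228 and 221 in the controls and 76.9 and 77.1 after knockdown (−1.55 ± 0.14, adjusted p = 3.31e-08), while the HNRNPA1 probeset was not called (0.03 ± 0.12), and the probes of such copies may read each other's transcripts. The call did not hold with 1 array left out for RMRP (adjusted p = 0.247 without control replicate 1 and 0.17 without knockdown replicate 2) and RPPH1 (adjusted p = 0.0521 without knockdown replicate 2 and 0.254 without control replicate 2). A shift of over 1.5 times was seen for RMRP (0.20 without control replicate 1), RMRP (0.19 without knockdown replicate 2), RPPH1 (0.47 without control replicate 1), RPPH1 (0.13 without control replicate 2), RPPH1 (0.17 without knockdown replicate 2) and SNAR-G1 (0.47 without control replicate 1).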
